A study of Mus musculus with 6 samples.

Results

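Cathepsins are the main proteases of the lysosome, and 8 genes that encode them, Ctsa, Ctsb, Ctsc, Ctsd, Ctse, Ctsh, Ctsl and Ctsz, are described here out of 18193 named genes on the array. They were chosen by name, and every probe set annotated to one of them alone was read, which gave 20 probe sets. The arrays held total RNA from FL-Y activated with an antibody to the lymphotoxin beta receptor (1 array), from FL-Y, an FDC-like cell line transformed with SV40 (1 array), from follicular dendritic cells (FDC) cultured in vitro (2 arrays) and from bone marrow-derived dendritic cells (BMDC, 2 arrays), all of mouse. The labels give no strain, age, dose or time of activation, and nothing in them tells whether the 2 arrays of a cell type hold RNA of separate cultures. The p-values therefore cover only the variation from array to array, which may be technical. FL-Y is 1 line, and SV40 transformation is shared by its untreated and its activated form.

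Cathepsins are made as inactive precursors, are carried to the lysosome mostly by the mannose 6-phosphate receptors and are activated there at acid pH. Most are cysteine proteases of the papain family, Ctsd and Ctse are aspartic proteases, and Ctsa is a serine carboxypeptidase. In dendritic cells and macrophages they degrade endocytosed protein to peptides and remove the invariant chain from MHC class II. FDC, stromal cells of the B cell follicle, hold native antigen on their surface for B cells.

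Values are signal units of the deposited table, in which every array has a trimmed mean near 500. Tests and log2 differences used log2(signal + 14.2), which understates differences of dim probe sets. Fold values are ratios of geometric means of signal + 14.2 and can differ from ratios of the printed arithmetic means. On single arrays the 20th percentile ran from 8.7 to 15.4, and it serves as a mark of background level. The 3' to 5' signal ratios of the control probe sets, a sign of RNA quality, were alike on the 6 arrays: 0.808 to 0.904 for Gapdh and 1.01 to 1.16 for beta-actin. The ratio of labelling to hybridisation controls was 0.127 on FDC array 1 and 0.111 on BMDC array 1, against 0.332 on FDC array 2 and 0.527 on BMDC array 2, so differences are also given for the first and for the second arrays alone. That ratio was lowest on the arrays of FL-Y (0.0628) and activated FL-Y (0.0723). Their median signals were also the lowest, 61.1 and 47.9, against 76.4 to 84.4 on the FDC and BMDC arrays. Of 6 FDC markers none rose by limma and 2 fell in FDC, the Fc receptor Fcgr2b (-7.03) and the opsonin Mfge8 (-2.18), with 3 of the 6 at an unadjusted p under 0.05. The adhesion molecule Vcam1 was at 6959 and 5764 in FDC and 108 and 875 in BMDC (4.27, adjusted p = 0.0566, limma, not called). The follicular chemokine Cxcl13 was at 1288 and 64.5 in FDC and 50.9 and 36.4 in BMDC, the complement receptor Cr2 at 119.5 and 4.1 in FDC and 59.1 and 71.1 in BMDC, and the addressin Madcam1 at 107.5 and 69.6 in FDC and 80.1 and 76.3 in BMDC, none of them called. All 5 fibroblast markers rose, led by Dcn (9.67), Col3a1 (9.14), Col1a1 (8.88) and Pdgfra (6.47). Dcn was under the 20th percentile on BMDC array 1 and Pdgfra on BMDC array 2.

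Promoter windows of RefSeq (build GRCm38.p6) run from 250 bases before to 50 after an annotated start. They were held for 5 of the 8 genes, Ctsa, Ctsc, Ctsd, Ctsl and Ctsz, in 6 windows. The motif CACGTG, the E-box that transcription factors of the TFEB family bind in lysosomal genes, was searched on both strands and was found in 3 of the 6 windows, those of Ctsd, Ctsl and 1 of the 2 windows of Ctsa. Of all 32851 promoter windows 7.15% held it. The longer form TCACGTGA, which contains CACGTG, was in 2 windows, those of Ctsa and Ctsd, against 0.974% of all windows. The windows of Ctsc and Ctsz held neither. The GC box GGGCGG, also searched, was in 3 of the 6 windows, those of Ctsc, Ctsd and Ctsz, against 35.7% of all windows. The motif GAGGAAGT, an Ets core of the kind bound by the myeloid factor PU.1, was found on the reverse strand at -151 of Ctsc and in no other of the 6 windows (3.2% of all windows held it). In the following stretches, which end 20 bases after the start and run 5′ to 3′ in the direction of the gene, CACGTG and GAGGAAGT (on either strand) are in capitals. They are chr2:164833523-164833792 (+ strand) for Ctsa, with CACGTG beginning at -12 and 6, chr7:142387808-142388077 (- strand) for Ctsd, with matches at -245 and -98, chr13:64370501-64370770 (- strand) for Ctsl, with a match at -236, and chr7:88277835-88278104 (+ strand) for Ctsc. Matches are a description of these letters and not of binding. Their relation to the differences in signal was not tested.
Ctsa: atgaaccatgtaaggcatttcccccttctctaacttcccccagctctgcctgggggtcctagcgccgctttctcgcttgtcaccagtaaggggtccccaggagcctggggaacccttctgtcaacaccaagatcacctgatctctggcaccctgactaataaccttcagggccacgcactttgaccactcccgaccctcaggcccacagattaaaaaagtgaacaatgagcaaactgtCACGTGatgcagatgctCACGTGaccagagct
Ctsd: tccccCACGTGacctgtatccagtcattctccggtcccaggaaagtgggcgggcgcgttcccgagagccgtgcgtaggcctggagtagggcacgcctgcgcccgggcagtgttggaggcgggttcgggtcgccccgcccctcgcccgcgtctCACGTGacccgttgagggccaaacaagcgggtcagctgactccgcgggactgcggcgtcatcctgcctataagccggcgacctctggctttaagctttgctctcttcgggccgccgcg
Ctsl: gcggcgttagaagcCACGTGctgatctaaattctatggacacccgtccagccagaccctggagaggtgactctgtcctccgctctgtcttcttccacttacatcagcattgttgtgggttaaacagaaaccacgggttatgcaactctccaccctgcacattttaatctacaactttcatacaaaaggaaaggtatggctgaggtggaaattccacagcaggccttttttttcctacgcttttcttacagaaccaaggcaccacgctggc
Ctsc: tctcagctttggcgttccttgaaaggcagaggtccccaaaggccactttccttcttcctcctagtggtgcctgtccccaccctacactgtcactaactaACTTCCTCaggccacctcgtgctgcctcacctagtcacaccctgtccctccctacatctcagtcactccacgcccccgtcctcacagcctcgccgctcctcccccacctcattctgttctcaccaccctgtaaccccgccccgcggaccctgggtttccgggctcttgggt

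The design text names the comparison of FDC with BMDC. In it, Ctsc, Ctsz and 1 probe set of Ctse were lower in FDC, while no probe set of Ctsa, Ctsb, Ctsd, Ctsh or Ctsl passed the test. In bulk RNA fewer cells of a type and less RNA per cell cannot be told apart. Of the 20 probe sets 19 passed the filter on dim signals and were tested, and 5 of them were called lower and 0 higher (limma, adjusted p under 0.05 over 27022 probe sets). Among these 5, Ctsc 1437939_s_at passed the filter only through its BMDC signal. Of all probe sets tested 8.93% were called, 4.09% lower in FDC and 4.84% higher. At an unadjusted p under 0.05, 7 of the 19 were lower and 0 higher, against 23.5% of all probe sets in either direction. FDC lay below BMDC with no overlap of the arrays in 10 of the 19 (28.9% of all probe sets did), above in 1 (25.8% of all), and the groups overlapped in 8. The median difference of the 19 was -1.26, beside -0.05 for all probe sets tested. Several of the 19 read the same gene. Taking 1 probe set per gene, the brightest by its log2 average on the 6 arrays, called its representative, 1 of the 8 genes was called lower, Ctsc, against 5.40% of 12750 genes lower and 5.87% higher. By representatives the median difference of the 8 genes was -0.99, beside -0.03 for all genes tested. The calls rest on few arrays: without BMDC array 1 or BMDC array 2, 1 cathepsin probe set was called in each case, and without FDC array 1 or FDC array 2, 2 in each. With no filter on dim probe sets 0 were called by limma, with adjusted p of the 5 then between 0.0579 and 0.102.

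**Figure D1:**
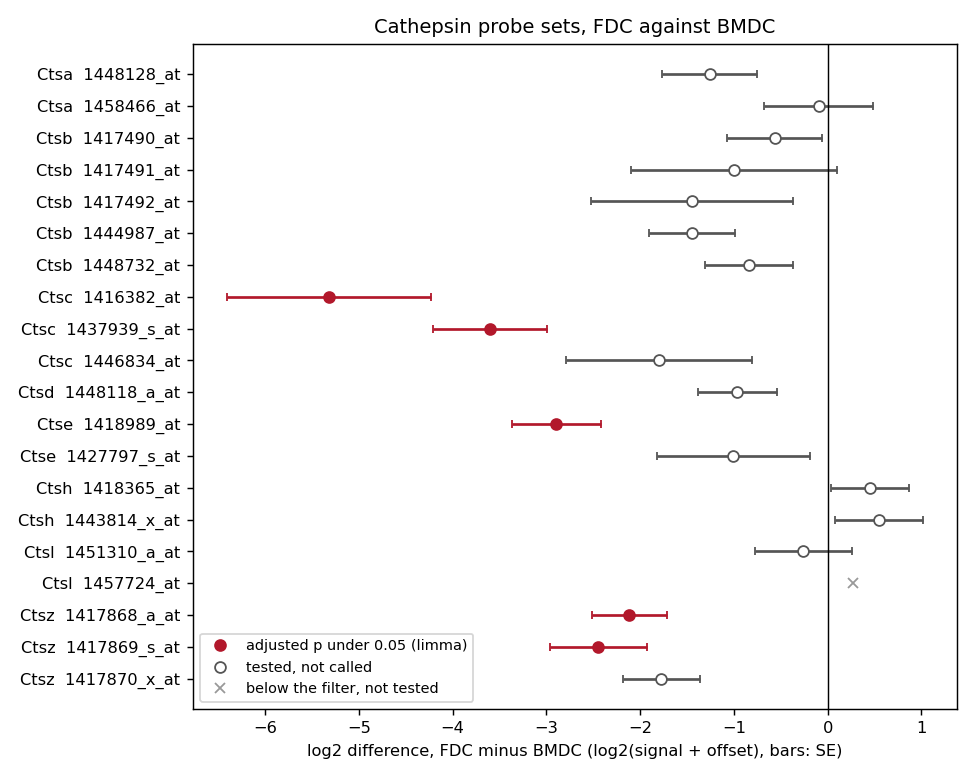
Log2 difference, FDC minus BMDC, of the 20 cathepsin probe sets (rows), with the SE of the limma fit as bars and 2 arrays in each group. Filled points are the 5 called probe sets, of Ctsc, Ctse and Ctsz, all left of 0; the cross is the Ctsl probe set below the filter.

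Among the cysteine exopeptidases, Ctsc, Ctsz and Ctsh behaved differently. Ctsc is dipeptidyl peptidase I, which activates the serine proteases of granulocytes, mast cells and cytotoxic lymphocytes by removing N-terminal dipeptides. Its brightest probe set, 1416382_at, had a signal of 845 in activated FL-Y, 402 in FL-Y, 107 and 1136 in FDC, and 11378 and 19417 in BMDC. All 4 arrays of FDC and FL-Y lay below both BMDC arrays. The mean was 621 ± 728 in FDC and 15398 ± 5685 in BMDC (SD, n = 2 each), a log2 difference of -5.32 ± 1.08 (SE, adjusted p = 0.0448, limma), or 39.9-fold lower. The first arrays alone gave -6.56 and the second -4.08. The FDC arrays themselves differed 9.52-fold, array 2 being the higher. Between the FDC arrays 23.4% of tested probe sets were apart by a log2 value of 1 or more and 1.23% by 3 or more, as this one was. In the array maker's naming the ending s or x marks a probe set whose probes can match more than 1 transcript, so 1437939_s_at of Ctsc, 1427797_s_at of Ctse, 1417869_s_at and 1417870_x_at of Ctsz and 1443814_x_at of Ctsh may not read their gene alone. The second Ctsc probe set, 1437939_s_at, was at 13.1 in activated FL-Y, 1.7 in FL-Y, 5.7 and 24.6 in FDC and 203 and 512 in BMDC. The difference was -3.61 ± 0.61 (SE, adjusted p = 0.0263, limma). FL-Y and FDC array 1 were under their 20th percentile there, so the size of the difference depends on the offset. Both FDC values lay below the filter, a signal of 46.4, so only its BMDC signal brought this probe set into the test. The third, 1446834_at, overlapped between the groups, with 48.8 and 2.7 in FDC and 36.1 and 242 in BMDC. Ctsc lost its call on the brightest probe set without BMDC array 1 (adjusted p = 0.0885) or BMDC array 2 (0.130), and on 1437939_s_at without FDC array 1 (0.0761). Without BMDC array 2 that probe set was below the filter and had no test.

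Ctsz, also named cathepsin X, is a carboxypeptidase that removes single residues and is abundant in myeloid cells. Its probe set 1417868_a_at was at 5976 in activated FL-Y, 4331 in FL-Y, 8193 and 6011 in FDC, and 33174 and 27931 in BMDC. The FDC mean was 7102 ± 1543 and the BMDC mean 30553 ± 3708 (SD, n = 2 each), a log2 difference of -2.11 ± 0.40 (SE, adjusted p = 0.0355, limma), or 4.33-fold lower in FDC. The groups did not overlap on any of the 3 probe sets of the gene. The other two gave -2.45 ± 0.51 (1417869_s_at, adjusted p = 0.0482) and -1.77 ± 0.41 (1417870_x_at, adjusted p = 0.0620, not called) with limma. With the first or the second arrays alone the 3 probe sets ranged from -2.52 to -1.72. Neither called probe set passed the test once any 1 of the 4 arrays was removed, with adjusted p of 0.0672 to 0.146 and of 0.0683 to 0.171.

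Ctsh, an aminopeptidase that also cuts as an endopeptidase, was the only gene of the 8 whose tested probe sets were both higher in FDC. Its probe set 1418365_at was at 788 in activated FL-Y, 1346 in FL-Y, 16836 and 12251 in FDC, and 12192 and 9034 in BMDC. Both FDC arrays lay above both BMDC arrays, the higher BMDC array just below the lower FDC array. The means were 14543 ± 3242 in FDC and 10613 ± 2233 in BMDC (SD, n = 2 each), and the log2 difference of 0.45 ± 0.41 (SE) did not pass the test (adjusted p = 0.583, limma). The probe set 1443814_x_at, with 4466 and 2376 in FDC and 2445 and 2023 in BMDC, overlapped between the groups and had a difference of 0.55 ± 0.47 (SE, adjusted p = 0.553, limma).

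Of the cysteine endopeptidases, Ctsb, which also acts as a dipeptidyl carboxypeptidase, had 5 probe sets, all with negative differences and none called. On 1417490_at the signal was 4556 in activated FL-Y, 5614 in FL-Y, 34261 and 19822 in FDC, and 51058 and 29194 in BMDC. FDC array 1 stood above BMDC array 2, so the groups overlapped, and the difference was -0.57 ± 0.50 (SE, adjusted p = 0.570, limma). On 1448732_at the signal was 3252 in activated FL-Y, 3806 in FL-Y, 16391 and 15210.0 in FDC, and 39481 and 20191 in BMDC. There both FDC arrays lay below both BMDC arrays, with a difference of -0.84 ± 0.47 (SE, adjusted p = 0.366, limma). The probe sets 1417491_at and 1417492_at differed more between the BMDC arrays than between the cell types. The log2 values of BMDC array 1 lay above those of array 2 by more than 2, which 3.90% of tested probe sets did in either direction (19.8% by 1 or more). On 1417492_at that ratio was 8.60, while it was 1.75 on 1417490_at and 1.95 on 1448732_at. The dimmest, 1444987_at, was at 104 and 51.7 in FDC and 254 and 201 in BMDC, with no overlap and a difference of -1.45 ± 0.46 (SE, adjusted p = 0.132, limma).

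Ctsl cuts the invariant chain in cortical thymic epithelium and can act on matrix proteins when secreted. Its probe set 1451310_a_at was at 13156 in activated FL-Y, 14309 in FL-Y, 28110 and 28995 in FDC, and 52054 and 22419 in BMDC. The FDC arrays were close to each other and lay between the BMDC arrays, which differed 2.32-fold. The difference was -0.26 ± 0.52 (SE, adjusted p = 0.818, limma), with -0.89 from the first arrays alone and 0.37 from the second. The other probe set, 1457724_at, was below the filter, with signals of 3.3 to 34.9 on the 6 arrays, and was not tested.

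**Figure D2:**
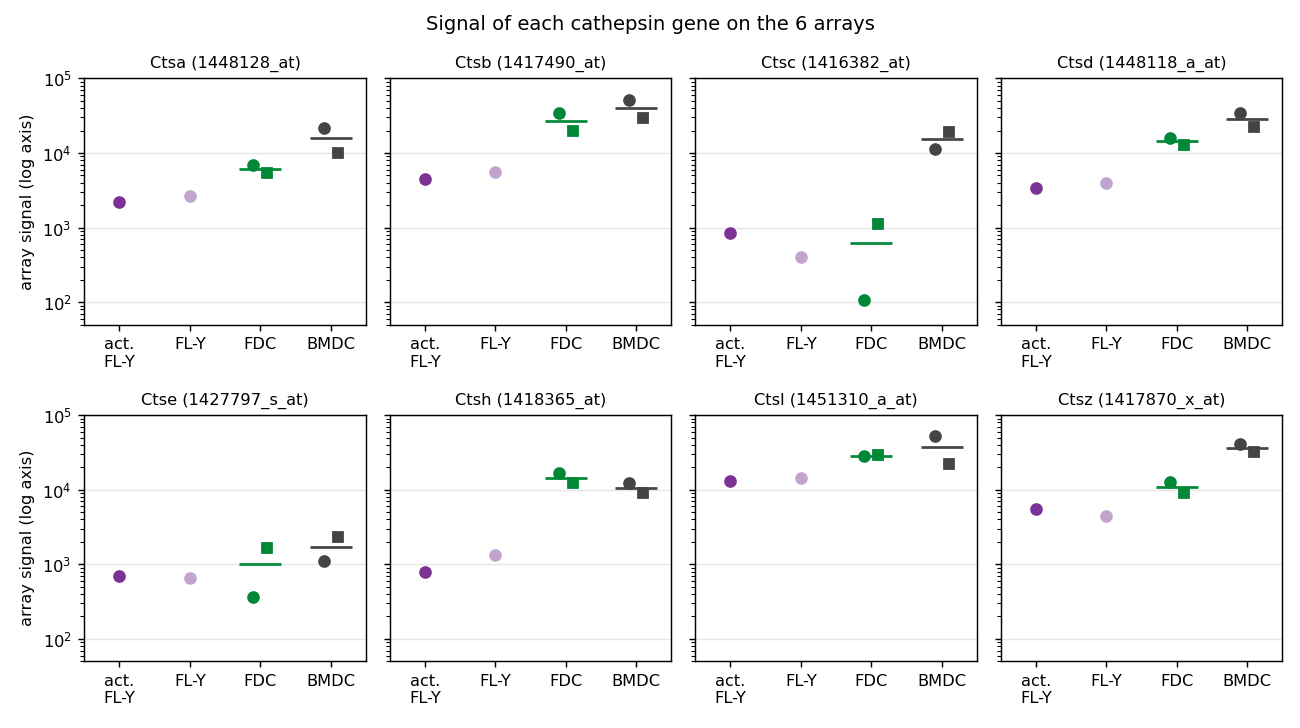
Signal of the representative probe set of each of the 8 genes (panels) on a log axis in activated FL-Y, FL-Y, FDC and BMDC. Circles are the only or the first array, squares the second array and lines the mean of 2 arrays. FDC lies close to BMDC for Ctsb, Ctsh and Ctsl and well below it for Ctsc, and FL-Y lies below both BMDC arrays in every panel.

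The aspartic proteases were Ctsd, a ubiquitous lysosomal enzyme, and Ctse, an endosomal enzyme of immune and gastric cells. Ctsd had 1 probe set, 1448118_a_at, at 3387 in activated FL-Y, 3978 in FL-Y, 15938 and 12699 in FDC, and 34286 and 22476 in BMDC. The 3 kinds of cells did not overlap, with BMDC highest and the FL-Y line lowest, and the difference of FDC from BMDC was -0.96 ± 0.42 (SE, adjusted p = 0.253, limma). Ctse gave different answers on its 2 probe sets. On 1418989_at it was at 44.6 in activated FL-Y, 77.6 in FL-Y, 537 and 355 in FDC, and 4421 and 2517 in BMDC. These groups did not overlap, and Ctse was 7.43-fold lower in FDC, a log2 difference of -2.89 ± 0.48 (SE, adjusted p = 0.0242, limma), with -3.01 from the first arrays alone and -2.78 from the second. Leaving out BMDC array 1 ended the call (adjusted p = 0.0917), and so did leaving out FDC array 2 (0.0694). On 1427797_s_at it was at 694 in activated FL-Y, 652 in FL-Y, 366 and 1669.6 in FDC, and 1102 and 2298 in BMDC. There FDC array 2 stood above BMDC array 1, and the difference was -1.01 ± 0.82 (SE, adjusted p = 0.534, limma).

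The serine carboxypeptidase Ctsa, which also shields lysosomal beta-galactosidase and neuraminidase from degradation, was at 2217 in activated FL-Y, 2653 in FL-Y, 6982 and 5386 in FDC, and 21356 and 10099 in BMDC on 1448128_at. Each kind of cell stood apart from the next, but the difference of FDC from BMDC, -1.26 ± 0.50 (SE), did not pass the test (adjusted p = 0.218, limma). That difference was -1.61 from the first arrays alone and -0.91 from the second. The other probe set, 1458466_at, was dim and overlapped between the groups, with 156 and 65.5 in FDC and 73.4 and 162 in BMDC.

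**Figure D3:**
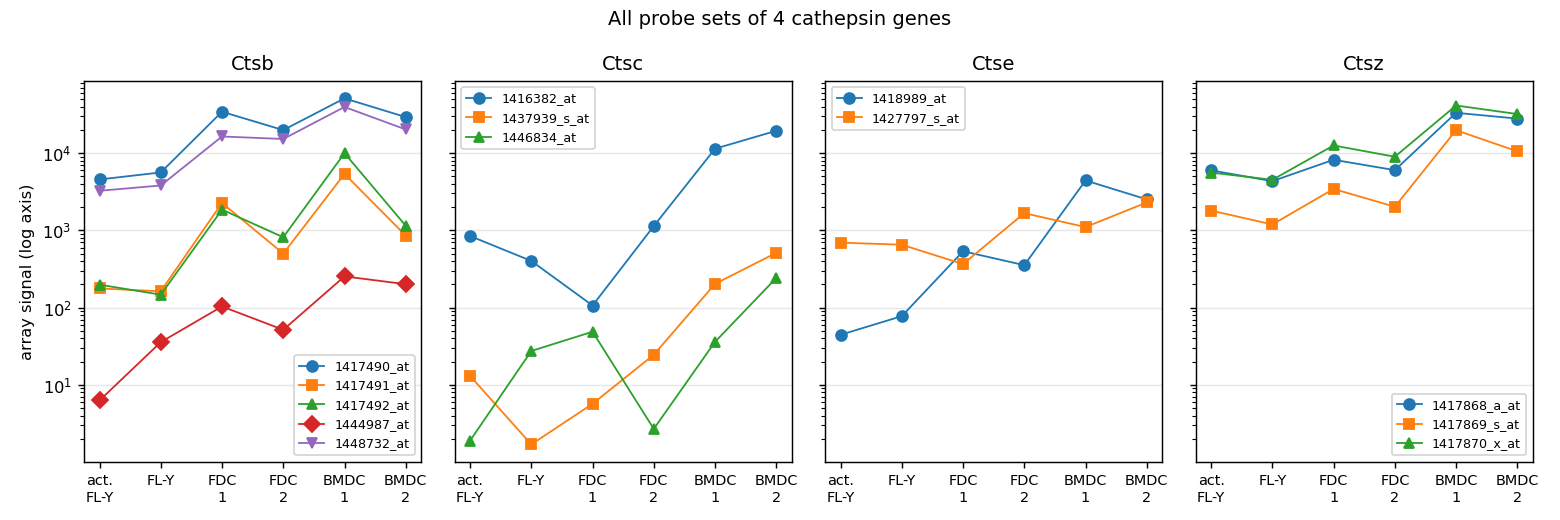
Signal on a log axis of every probe set of Ctsb, Ctsc, Ctse and Ctsz on the 6 arrays; a line joins the values of 1 probe set. The 3 Ctsz probe sets run in parallel, the Ctse probe sets cross, and 2 Ctsb probe sets, 1417491_at and 1417492_at, drop from BMDC array 1 to BMDC array 2 more than the others.

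FL-Y was set beside BMDC and beside FDC without a test, because it has 1 array, and a difference of at least 1 on the log2 scale was counted. All 8 genes, by their representative probe sets, were lower in FL-Y than on both BMDC arrays (43.7% of 12750 genes were) and differed from the BMDC mean by -1 or less (24.2% of genes). The median difference of the 8 was -2.79, beside -0.07 for all genes tested. After rescaling the arrays to one median, which moves the median of all genes to 0.30, 6 of the 8 were at -1 or less. The largest was that of Ctsc, at -5.16 or 35.7-fold lower in FL-Y. Ctsa, Ctsb, Ctsd, Ctsh and Ctsz lay between -3.01 and -2.46, and Ctse on its representative 1427797_s_at (-1.27) and Ctsl (-1.25) differed least. On 1418989_at Ctse differed by -5.19.

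Compared with the FDC mean, 5 of the 8 genes were lower in FL-Y by at least 1 (21.5% of genes were), and 6 lay below both FDC arrays (44.2% of genes did). The median was -1.22, beside -0.13 for all genes tested; rescaled to one median, with all genes at 0.25, 3 genes were past -1. Ctsh showed the widest gap, 10.6-fold lower in FL-Y (-3.40), and its other probe set gave -3.61. Ctsb was lower by 4.63-fold and Ctsd by 3.57-fold. Ctsz (-1.23) and Ctsa (-1.20) lay just past -1, while Ctsl fell just short of it, 1.99-fold lower. Ctsc was at 0.16 with FL-Y between the FDC arrays, which gave -1.47 without FDC array 1 and 1.79 without FDC array 2. Ctse gave -0.26 on 1427797_s_at, also with FL-Y between the FDC arrays, and its direction turned without FDC array 2 (0.81) and after rescaling (0.14). On 1418989_at Ctse was lower in FL-Y than on both FDC arrays, with a difference of -2.30 or 4.91-fold. With that probe set standing for Ctse, 6 of the 8 genes were lower by at least 1 and 7 lay below both FDC arrays. Ctsh was near the BMDC level in FDC and low in FL-Y, whereas Ctsc was far below BMDC in both.

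**Figure D4:**
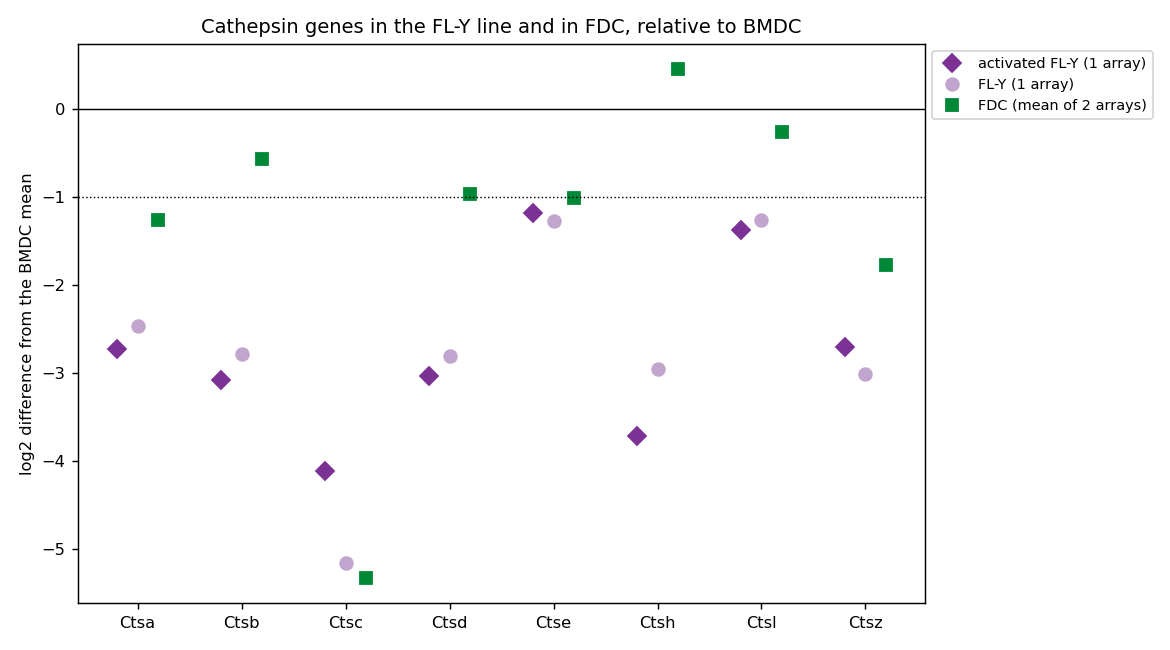
Log2 difference from the BMDC mean of activated FL-Y (1 array), FL-Y (1 array) and FDC (mean of 2 arrays) for the representative probe set of each gene; the dotted line marks -1. All FL-Y values lie below the dotted line, and the gap between FL-Y and FDC is widest for Ctsh.

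The lymphotoxin beta receptor is the signal by which lymphocytes maintain FDC, and FL-Y was read after and before its activation, 1 array each and no replicate check. Of the 8 genes 3 were higher and 5 lower in activated FL-Y, but after rescaling to one median, which moves the median of all genes to 0.28, 7 were higher and 1, Ctsh, was lower, so small differences have no settled direction. Of the 8 genes 1 differed by at least 1 (1.75% of 12204 genes were higher and 4.89% lower by that much). That gene was Ctsc, at 845 in activated FL-Y and 402 in FL-Y, 2.06-fold or 1.05 on the log2 scale; it was under 1 with an offset at the 40th percentile and after quantile normalization. Its dim probe set 1437939_s_at gave 0.78 and 1446834_at -1.37. Ctsz was higher by 0.31 to 0.59 on its 3 probe sets. Ctsh was at -0.76, and at -0.19 on 1443814_x_at. Ctsb (-0.30), Ctsa (-0.26), Ctsd (-0.23) and Ctsl (-0.12) were slightly lower, beside a median of -0.06 for all genes, and these 4 turned positive after rescaling. The other Ctsb probe sets did not share a direction, with 0.40 on 1417492_at, 0.11 on 1417491_at, -0.23 on 1448732_at and -1.29 on the dim 1444987_at. Ctse was at 0.09 on 1427797_s_at and -0.64 on 1418989_at. Activated FL-Y lay below both BMDC arrays for all 8 genes (46.7% of genes were).

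Other lysosomal genes were read by 1 probe set each in the comparison of FDC with BMDC, in which 11.3% of all genes were called. Of 5 tested papain-type cathepsins outside the 8, Ctss alone was called, and the median difference of the 5 was 0.23. The others, Ctsf (1.76), Ctsw (1.06), Ctsk (0.23) and Ctso (0.20), had positive differences. On Ctsf both FDC arrays lay above both BMDC arrays. Ctss, the enzyme that completes invariant chain cleavage in dendritic cells, was at 6.2 in activated FL-Y, 7.1 in FL-Y, 283 and 394 in FDC, and 50862 and 32465 in BMDC, a difference of -6.87 ± 0.44 (SE, adjusted p = 0.00303, limma). The osteoclast collagenase Ctsk was at 7675 and 3716 in FDC and 10291 and 2011 in BMDC and overlapped. The other 8 on the array, Ctsj, Ctsm, Ctsq, Ctsr, Cts3, Cts6, Cts7 and Cts8, a cluster expressed in placenta, were below the filter. Of 8 other lysosomal and granule proteases 3 fell, Napsa (-6.58), an aspartic protease, Ctsg (-4.26), a serine protease of granulocytes that Ctsc activates, and Prcp (-2.72), a carboxypeptidase, and 0 rose with limma (4 of the 8 at an unadjusted p under 0.05). Legumain, Lgmn, which processes cathepsins, was at 1907 and 2067 in FDC and 5435 and 1611 in BMDC and was not called.

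Cystatins and other inhibitors moved both ways: of 9 tested, 3 fell and 2 rose, with a median of -1.05. The stefins Stfa2l1 (-6.11) and Stfa3 (-5.10), cytosolic inhibitors, and Cst7 (-3.31), an endolysosomal inhibitor of immune cells, fell, while Cst6 (3.69), a secreted inhibitor, and Serpinb6a (2.21) rose. Both FDC values of Stfa2l1 and of Stfa3 and both BMDC values of Cst6 lay below the filter, a signal of 46.4. Only the group where they were high brought Stfa2l1, Stfa3 and Cst6 into the test. Stfa genes are near-identical copies, and probe sets may read several of them. Cst3, the main secreted cystatin, had a difference of -1.05 ± 0.38 (SE, adjusted p = 0.176, limma).

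Among 25 glycosidases, lipases and sulfatases 2 fell, the acid lipase Lipa (-3.08) and the ganglioside activator Gm2a (-2.53), with a median of -0.81. Of 19 lysosomal membrane proteins and transporters 5 fell and 1 rose, with a median of -0.45: Gpnmb (-6.26), Cd68 (-6.23), Laptm5 (-4.39) and the metal transporter Slc11a1 (-4.12), all known from myeloid or lymphoid cells, were the largest falls, and Laptm4b, named after its values were seen, was the rise (3.26). Of 17 subunits of the V-ATPase, the proton pump that acidifies lysosomes, 3 fell, Atp6v0d2 (-6.49), Atp6v1b2 (-2.10) and Atp6v0a1 (-1.74), and the median was -0.91. The sorting receptor Sorl1 (-4.63) was the only call among 13 genes of mannose 6-phosphate tagging and sorting, whose median was -0.45. The receptors M6pr and Igf2r, which carry cathepsins, differed by -1.02 ± 0.47 and -0.29 ± 0.47 (SE), and neither was called. None of the 4 MiT/TFE factors, which switch on lysosomal genes, was called by limma (2 at an unadjusted p under 0.05), and Tfec (-1.48) and Tfeb (-1.47) had the largest differences. FL-Y was lower than FDC by at least 1 for 16 of the 25 glycosidases, lipases and sulfatases, 12 of the 19 membrane genes, 5 of the 5 other papain-type cathepsins and 4 of the 8 other proteases, beside 21.5% of all genes. The same held for 5 of the 13 sorting genes, 3 of the 9 inhibitors, 2 of the 4 MiT/TFE factors and 2 of the 17 V-ATPase subunits, the last a smaller share than that of all genes. These counts use the deposited scaling and 1 FL-Y array. Rescaling to one median moves the median FL-Y minus FDC of all genes from -0.13 to 0.25.

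**Figure D5:**
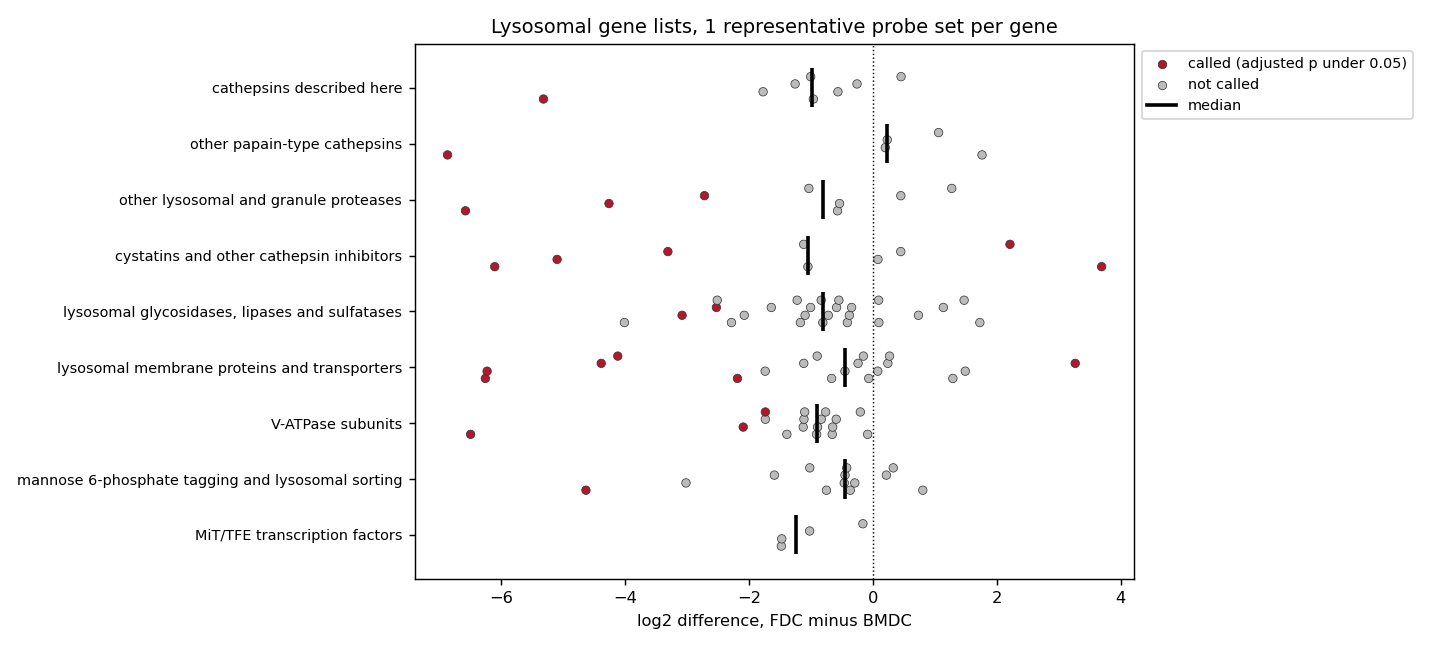
Log2 difference, FDC minus BMDC, of each tested gene (points) in the 8 cathepsins and in 8 lists of related genes; filled points in red were called and black bars are medians. Most medians lie between -1.25 and 0, and single genes such as Ctss, Napsa and Gpnmb lie far to the left.

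Markers of blood cells, read in the comparison of FDC with BMDC, moved in both directions. The 3 leukocyte markers, Ptprc, Cd53 and Laptm5, all fell, with a summed signal of 149.9 in activated FL-Y, 306.5 in FL-Y, 5015.8 and 3769.8 in FDC, and 47961 and 37833 in BMDC. Laptm5 here and Cd68 among the macrophage markers are also counted among the lysosomal membrane genes. Of 5 tested macrophage and monocyte markers 4 fell, Csf1r (-7.26), Cd68 (-6.23), Adgre1 (-6.01) and Mertk (-4.41), with sums of 679 and 649.8 in FDC and 84302 and 52245 in BMDC. Of 6 dendritic cell markers 4 fell, Itgax (-8.10), H2-Aa (-7.88), Cd74 (-6.58) and Ccr7 (-5.38), with sums of 949.8 and 1151 in FDC and 125441 and 105815 in BMDC. All 5 granulocyte markers fell, S100a9 (-11.00), S100a8 (-6.94), Ngp (-6.77) and Mpo (-6.73) most, with sums of 431 and 422 in FDC and 80228 and 138440 in BMDC. Of 5 mast cell markers 2 rose, Mcpt4 (3.99) and Tpsb2 (3.90), with sums of 3570.5 and 5461 in FDC and 3806 and 866 in BMDC. The others, Cpa3, Kit and Ms4a2, were not called. Cpa3, the largest part of each sum, overlapped, at 1449 and 2968 in FDC and 2621 and 396 in BMDC. Kit had a negative difference (-0.84), at 44.3 and 107.8 in FDC and 155.4 and 121.2 in BMDC. Of 4 T cell markers 3 rose, Cd3d (3.95), Cd3g (3.31) and Cd8b1 (3.14), with sums of 1767 and 1049 in FDC and 188 and 35.1 in BMDC. All 4 were under the 20th percentile on BMDC array 2, and Cd8b1 also on BMDC array 1. The sizes of these rises therefore depend on the offset, and only its FDC signal brought Cd8b1 into the test. Neither B cell marker was called by limma or had an unadjusted p under 0.05, Cd79a (-1.41) and Ms4a1 (-0.41), with sums of 188.5 and 108.3 in FDC and 419 and 188 in BMDC. On the FDC arrays Fcgr1, Mertk, S100a9 and Elane were each under the 20th percentile of 1 array. Both FDC values of each of these genes lay below the filter, so only their BMDC signal brought them into the test. The part of these cells in the cathepsin signals was not tested.

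As a description of the 6 arrays, the genes whose log2 values followed each cathepsin most closely had Pearson correlations of 0.983 to 0.999 over n = 6 arrays, which share 2 cell types and 1 line. They were Iah1 and Uap1l1 for Ctsa, Wdr7 and Osgep for Ctsb, Ap1s3 and Slc25a13 for Ctsc, Sgsh and Dpp7 for Ctsd, Lmbr1l and Ess2 for Ctse, Tmem81 and Tmub2 for Ctsh, Mfap3l and Usf1 for Ctsl, and Adam17 and Spn for Ctsz. Between 36 (Ctse) and 472 (Ctsz) of 12742 genes exceeded 0.95, so a value over 0.95 was not particular to the named genes.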

How the data were processed

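Biotin-labelled total RNA was measured on 6 arrays, per the labels. The deposited table gives 1 linear intensity per probe set and array for 45101 probe sets (64 of them controls), with a trimmed mean near 500 on every array; how the signals were made and scaled is not given in the sources used here. The number of arrays limits the precision. Genes were named from the platform annotation (34945 probe sets with 1 gene, 932 with several, 9160 with none listed), and 0 symbols needed an update against GRCm38.p6.

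Values were analysed as log2(intensity + 14.2), the offset being the median of the arrays' 20th percentiles. Probe sets above the 40th percentile of the mean log2 value over the FDC and BMDC arrays (a signal of 46.4) were tested with limma 3.58.1 in R 4.3.3 (lmFit, eBayes, two-sided), with Benjamini-Hochberg adjustment over 27022 probe sets and a threshold of 0.05. On activation, genes above the 40th percentile of the mean log2 value of both FL-Y arrays were counted.

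The members and the lists were chosen with earlier results of these data known. Named were all members, up to 4 called genes of each list with the largest difference (the 2 largest where none was called), and the 2 genes most correlated with each member. Ctsf, Ctsk, Ctso, Ctsw, Lgmn, Cst3, Serpinb6a, M6pr, Igf2r and Laptm4b fall outside that rule and were chosen after their values were seen. So were Cr2, Cxcl13, Vcam1, Madcam1, Cpa3, Kit, Ms4a2, the placental cathepsins and the markers near background. The alternatives were a floor of 3.1 (the 5th percentile) in place of the offset, a larger offset of 52.2 (the 40th percentile), normalization by quantiles, rescaling of the arrays to one median, no filter, leaving out each array, the array number as a block, and the mean over a gene's probe sets. Reading Ctse on its other probe set was added after seeing the data.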

Additional observations from a re-analysis of the deposited data

How the results depend on the processing

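Across 10 alternatives, 4 values of cathepsin probe sets were below the filter and had no test, 1 of them of the called Ctsc 1437939_s_at, and 161 of the other 186 kept their side of the threshold, 24 lost a call and 1 gained one (Ctsz 1417870_x_at with an offset at the 40th percentile); 0 called values changed sign, while 7 values of probe sets never called did. Against 5 cathepsin probe sets, 21 listed lysosomal genes and 2413 probe sets called, the floor at the 5th percentile gave 1, 13 and 1443, and no filter gave 0, 13 and 1433 with limma. Quantile normalization gave 3 cathepsin probe sets. Without 1 array the counts were 1 to 2 cathepsin probe sets, 11 to 14 lysosomal genes and 1312 to 2090 probe sets. Under the floor the calls of Ctsc and Ctsz were lost and that of Ctse was kept. With the replicate block for the array number, which the BMDC labels give only for array 2, the counts were 5, 21 and 2392. The differences between arrays 2 and 1 correlated between the cell types at 0.199 across probe sets. That value does not tell whether the arrays were paired.

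Of 128 values for FL-Y and its activation 8 changed sign, all under 1 in size at first: on activation Ctsa, Ctsb, Ctsd and Ctsl after rescaling to one median and Ctsl after quantile normalization, and for FL-Y against FDC Ctse after rescaling and without FDC array 2 and Ctsc without FDC array 1. The count of genes lower in FL-Y than in FDC by at least 1 was 5, 3 after rescaling and 5 to 7 without 1 FDC array, and the count against BMDC was 8 and 7 without either BMDC array. The count of genes past 1 on activation was 1, and 0 with an offset at the 40th percentile or after quantile normalization.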
